A study of Mus musculus with 2 samples.

Results

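The miR-183, miR-96 and miR-182 cluster is a group of 3 microRNA (miRNA) hairpin genes, Mir183, Mir96 and Mir182, described here in the mouse adrenal gland. The members were chosen by their gene names, though earlier results of these data were known by then. All 3 were found among the 2202 miRNA genes counted. Small RNA was sequenced from adrenal glands of female 5xFAD/CAST mice, adults aged 8 to 10 months. The 5xFAD line is used to model Alzheimer's disease and carries human transgenes under the neuronal Thy1 promoter, and CAST is a wild-derived inbred strain. The labels used here do not say whether an animal carried the transgenes. The 2 libraries form 1 group, biological replicates 2 and 1, with separate biosamples and a common donor identifier. Nothing in the labels says that they came from separate animals, so every SD below measures the spread between these libraries, which may be technical. There is no second condition, so the comparisons are those between the hairpins and between the libraries.

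Replicate 2 had 6924829 reads on miRNA genes and replicate 1 had 3635851, and a level in CPM is the number of a gene's reads per 1000000 of these. No listed miRNA defines the adrenal gland, so the tissue label was checked only against lists of markers of cell types and of other tissues. The 4 genes of the neuroendocrine list (Mir375 and the Mir7 genes) summed to 48363 CPM in replicate 2 and 50709 CPM in replicate 1, and all 4 were detected, which means at least 10 reads in each library. Mir206, the 1 gene of the 5 on the striated muscle list that shares no 20-base stretch with another miRNA gene, stood at 0.866 CPM in replicate 2 and 2.75 CPM in replicate 1. The other 4 share such a stretch and had no read, which says nothing of their expression, since reads with several genomic matches were assigned to no gene. The liver marker Mir122 stood at 108 and 78.1 CPM.

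A miRNA is cut from a hairpin in a longer transcript by Drosha and then Dicer, and 1 arm of the hairpin is loaded into an Argonaute protein, where its seed, bases 2 to 8, pairs with target messages. Mir183, Mir96 and Mir182 are transcribed together and are best known from sensory organs, where they are abundant in photoreceptors, inner ear hair cells and sensory neurons. Changes in the seed of miR-96 cause hearing loss in mice and humans.

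The mature sequences are shown first because the members are related by their seeds, which is where their targets are read. The sequences are those of RefSeq on build GRCm38.p6, where all 3 members were matched, and capitals mark the seed.
miR-183-5p: uAUGGCACugguagaauucacu
miR-96-5p: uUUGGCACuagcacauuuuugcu
miR-182-5p: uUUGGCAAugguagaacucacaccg
miR-183-3p: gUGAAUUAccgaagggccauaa
miR-96-3p: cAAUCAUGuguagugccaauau
miR-182-3p: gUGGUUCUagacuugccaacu

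No 2 of the 5p arms had an identical seed. Substitutions are written as the base of the first miRNA named, its position from 1 at the 5′ end, and the base of the other. The seeds of miR-183-5p and miR-96-5p differed by A2U and shared 6 of 7 bases. Those of miR-96-5p and miR-182-5p differed by C8A and also shared 6 of 7, and those of miR-183-5p and miR-182-5p differed by both, A2U and C8A. Over the whole 5p arm the order was another one. When aligned without gaps from the 5′ end, miR-183-5p and miR-182-5p had 18 of 22 bases in common, whereas miR-96-5p had 13 of 22 in common with miR-183-5p and 12 of 23 with miR-182-5p. The pair miR-183-5p and miR-182-5p thus differed most in the seed and least along the arm, and outside the seed both carry the run UGGUAGAA from position 9.

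The hairpins are shown because the deposited counts are per hairpin, with both arms added together. Capitals mark the RefSeq mature arms, the 5p arm first.
Mir183 hairpin: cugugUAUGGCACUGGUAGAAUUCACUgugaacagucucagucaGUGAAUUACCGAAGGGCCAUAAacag
Mir96 hairpin: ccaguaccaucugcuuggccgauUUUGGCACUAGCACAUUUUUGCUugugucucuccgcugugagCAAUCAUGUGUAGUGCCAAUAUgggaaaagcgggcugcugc
Mir182 hairpin: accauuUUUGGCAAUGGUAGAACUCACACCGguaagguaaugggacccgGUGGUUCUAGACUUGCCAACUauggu

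The Mir96 hairpin was the longest of the 3 as annotated, with 106 bases against 70 for Mir183 and 75 for Mir182. Its GC content was 50.9%, against 45.7% for Mir183 and 48.0% for Mir182. The folding energy computed from the sequence was -47.9 kcal/mol for Mir96, -26.2 kcal/mol for Mir183 and -29.9 kcal/mol for Mir182. Per base, Mir96 also had the lowest computed energy, at -0.452 kcal/mol, against -0.374 for Mir183 and -0.399 for Mir182.

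In the mouse build mm10, which the deposited notes name, the hairpins lie on the minus strand of chromosome 6. Mir183 (ENSMUSG00000065619.2) is at chr6:30169668-30169737, Mir96 (ENSMUSG00000065586.1) at chr6:30169446-30169551 and Mir182 (ENSMUSG00000076361.1) at chr6:30165918-30165992. Mir183 and Mir96 are separated by 116 bases, and Mir96 and Mir182 by 3453 bases, so that the cluster spans 3820 bases. All 3 are intergenic in GENCODE M21, where no annotated gene on either strand overlaps a hairpin. The nearest annotated gene, Rncr4, is a noncoding RNA gene known from the retina that begins 3155 bases upstream of Mir183 on the opposite strand. On the other side, Nrf1, the gene of a transcription factor, ends 12459 bases beyond Mir182 on the opposite strand.

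**Figure D1:**
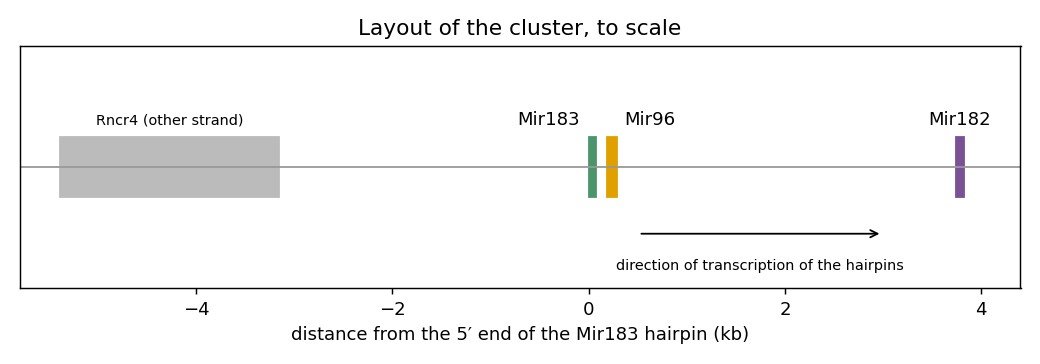
Layout of the 3 hairpins and of Rncr4, drawn to scale along the distance from the 5′ end of the Mir183 hairpin in kb, with transcription of the hairpins running to the right. Mir96 begins 116 bases after the end of Mir183, and Mir182 lies 3453 bases beyond Mir96.

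The reads of the members fell on their annotated strand. The values come from the count column taken to hold reads of 1 strand. The column taken to hold both strands gave the same count for each member in both libraries. The exception was Mir183 in replicate 2, with 3801 reads against 3800. The single extra read was the only 1 counted on the strand opposite to a member. No 20-base stretch of a member occurs in any of the other 2201 counted miRNA genes, on either strand. Reads with several genomic matches were assigned to no gene, and a match of a member outside the miRNA genes was not searched for.

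By reads, Mir182 and Mir183 were the abundant hairpins of the cluster and Mir96 was scarce. Whether reads of different miRNAs stand for equal numbers of molecules was not tested. Mir182 had 4357 reads in replicate 2 and 3380 in replicate 1. With exact 95% intervals by the Clopper-Pearson method, these correspond to 629 CPM in replicate 2 (611 to 648) and 930 CPM in replicate 1 (899 to 961), a mean of 779 ± 212 CPM (SD, n = 2). Replicate 1 was the higher library for Mir182. Mir183 had 3800 reads in replicate 2 and 1725 in replicate 1. Its level was 549 CPM in replicate 2 (interval 531 to 566) and 474 CPM in replicate 1 (452 to 497), a mean of 512 ± 52.5 CPM. Mir183 was higher in replicate 2, with a coefficient of variation of 10.3% between the libraries. Mir96 had 93 reads in replicate 2 and 195 in replicate 1, although replicate 2 was the deeper library. Its level was 13.4 CPM in replicate 2 (interval 10.8 to 16.5) and 53.6 CPM in replicate 1 (46.4 to 61.7), a mean of 33.5 ± 28.4 CPM. The libraries differed most for Mir96, with a coefficient of variation of 84.8%, against 27.3% for Mir182. The gap between Mir183 and Mir182 depended on the scaling, with 17.3% for Mir183 and 20.4% for Mir182 under TMM, and 18.5% and 19.1% under DESeq2 size factors. These intervals cover counting error only. They also treat reads as separate molecules, which PCR reads without molecular identifiers need not be, so they may be too narrow.

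**Figure D2:**
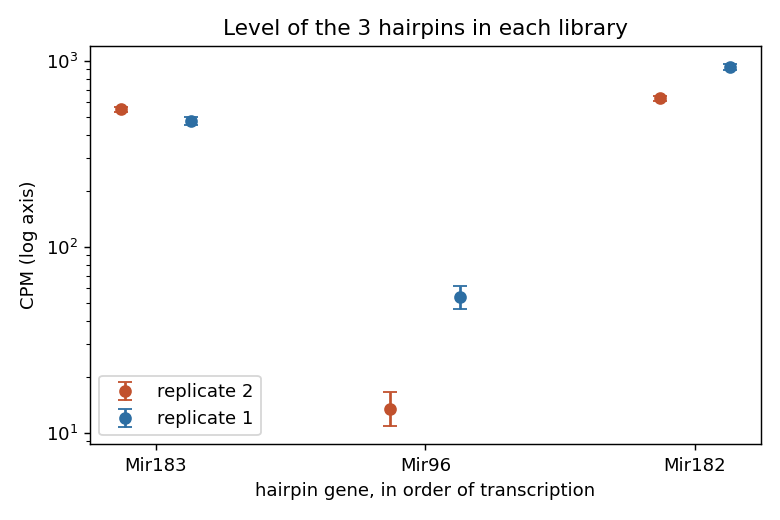
Level of each hairpin in CPM on a log axis, in order of transcription, with replicate 2 to the left of replicate 1 and bars for the exact 95% counting interval. Mir96 lies between 13.4 and 53.6 CPM in both libraries, below Mir183 at 474 to 549 CPM and Mir182 at 629 to 930 CPM.

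The order of levels was Mir182, Mir183, Mir96 in both libraries. The ranges of Mir182 and Mir183 did not overlap between the libraries, but the gap between them in replicate 2 was small beside the difference between the libraries for Mir182. With 2 libraries no test of this order was made. Among all miRNA genes, Mir182 had rank 93 in replicate 2 and 81 in replicate 1, and Mir183 had rank 100 and 110. Mir96 had rank 273 in replicate 2 and 218 in replicate 1. The median level of the 356 detected miRNA genes was 94.6 CPM, which Mir182 and Mir183 exceed and Mir96 does not reach.

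The cluster took a small part of the adrenal miRNA reads. Its 3 hairpins together had 8250 reads in replicate 2 and 5300 in replicate 1. That is 1191 CPM in replicate 2 (interval 1166 to 1217) and 1458 CPM in replicate 1 (1419 to 1497), a mean of 1325 ± 188 CPM (SD, n = 2). Of all miRNA-gene reads the cluster took 0.119% in replicate 2 and 0.146% in replicate 1. Fewer cells that express the cluster and less of it per cell cannot be told apart in whole tissue.

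The make-up of the cluster's reads shifted between the libraries. Mir182 supplied 52.8% of them in replicate 2 (51.7 to 53.9%, the same kind of interval) and 63.8% in replicate 1 (62.5 to 65.1%). Mir183 supplied 46.1% in replicate 2 (45.0 to 47.1%) and 32.5% in replicate 1 (31.3 to 33.8%). Mir96 supplied 1.13% in replicate 2 (0.911 to 1.38%) and 3.68% in replicate 1 (3.19 to 4.22%). The intervals of the 2 libraries are apart for each hairpin, so the shift is larger than counting error if each read is a separate molecule. Shares of 1 total are tied to each other, and they need no scaling to the library.

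**Figure D3:**
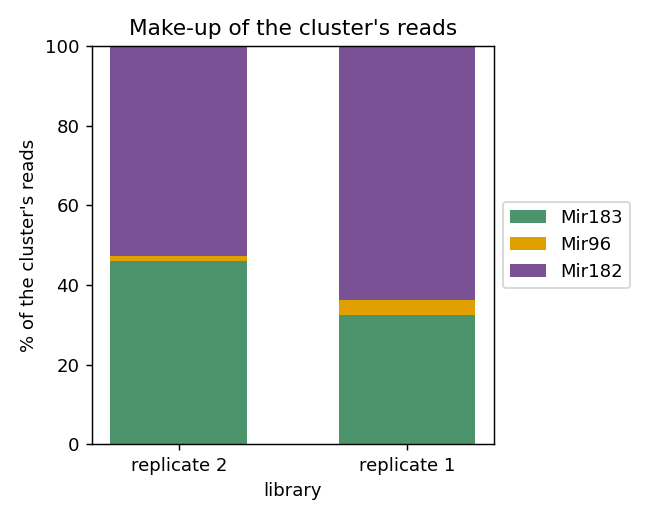
Share of the cluster's reads that each hairpin supplied, in percent, in replicate 2 (left) and replicate 1 (right). Mir183 takes 46.1% in replicate 2 and 32.5% in replicate 1, and the thin Mir96 band takes 1.13% and 3.68%.

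Ratios between hairpins within a library give the same picture without the cluster total. Mir182 had 1.15 times the reads of Mir183 in replicate 2 (interval 1.10 to 1.20) and 1.96 times in replicate 1 (1.85 to 2.08). Mir183 had 40.9 times the reads of Mir96 in replicate 2 (33.3 to 50.7) and 8.85 times in replicate 1 (7.62 to 10.3). Mir182 had 46.8 times the reads of Mir96 in replicate 2 (38.2 to 58.2) and 17.3 times in replicate 1 (15.0 to 20.1). The direction of each ratio was the same in both libraries, and its size was not.

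On the log2 scale the level of Mir182 over Mir183 was 0.58 ± 0.55 (SD, n = 2), a difference about as large as its spread. Mir183 over Mir96 was 4.25 ± 1.56 and Mir182 over Mir96 was 4.83 ± 1.01, both several times their spread. Since a small RNA read spans a whole mature arm of 21 to 25 bases, reads were compared per hairpin. Divided by hairpin length, the log2 level ratios were 0.48 for Mir182 over Mir183, 4.85 for Mir183 over Mir96 and 5.33 for Mir182 over Mir96, so Mir96 was the lowest on that scale as well.

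The next comparison was between the libraries, gene by gene. Mir183 had a log2 ratio of 0.21, replicate 2 over replicate 1 (95% interval 0.13 to 0.29), Mir182 one of -0.56 (-0.63 to -0.50) and Mir96 one of -1.99 (-2.37 to -1.63). Two-sided p-values came from Fisher's exact test and were adjusted over the 455 genes tested. The adjusted p by Fisher's exact test was 1.38e-06 for Mir183, higher in replicate 2. By the same exact test it was 9.62e-63 for Mir182 and 9.19e-30 for Mir96, both lower in replicate 2. This test covers counting error only and compares the libraries, not conditions. It called 52.5% of all tested genes, 16.9% as higher and 35.6% as lower in replicate 2, so that 3 of 3 members called is no finding about the cluster. Over all genes the plain totals gave 77 higher and 162 lower calls, TMM scaling gave 112 and 125, and DESeq2 size factors gave 118 and 121. TMM scaling raised every log2 ratio by 0.14 and the size factors by 0.17. Each of the 3 hairpins kept its direction and its call under both.

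When the spread between the libraries was added, in the exact test of edgeR at 1 common dispersion, none of the 3 hairpins was called. The adjusted p was 0.211 for Mir96 and 1 for Mir183 and for Mir182, and that test called 1.1% of all genes. Before adjustment Mir96 had p = 0.00436 in edgeR's exact test. It was 1 of 26 genes below 0.05 among the 455 tested, a share close to that threshold itself. The dispersion, a coefficient of variation of 31.4%, was taken from the same libraries. The share of genes below 0.05 is therefore largely set by that fit. It cannot be used to judge the value of Mir96.

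Mir96 nevertheless stood near the edge of the library differences. Of the 356 detected genes, 6 had a lower log2 ratio and 8 a larger one in absolute size, while the median of all was -0.19. For Mir182, 98 detected genes had a lower log2 ratio, and for Mir183, 76 had a higher one, so both lay well inside the distribution. The median absolute log2 ratio over detected genes was 0.40, which Mir96 and Mir182 exceeded and Mir183 did not. Under DESeq2 size factors Mir183 at 0.38 and Mir182 at -0.39 were of about the same size.

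**Figure D4:**
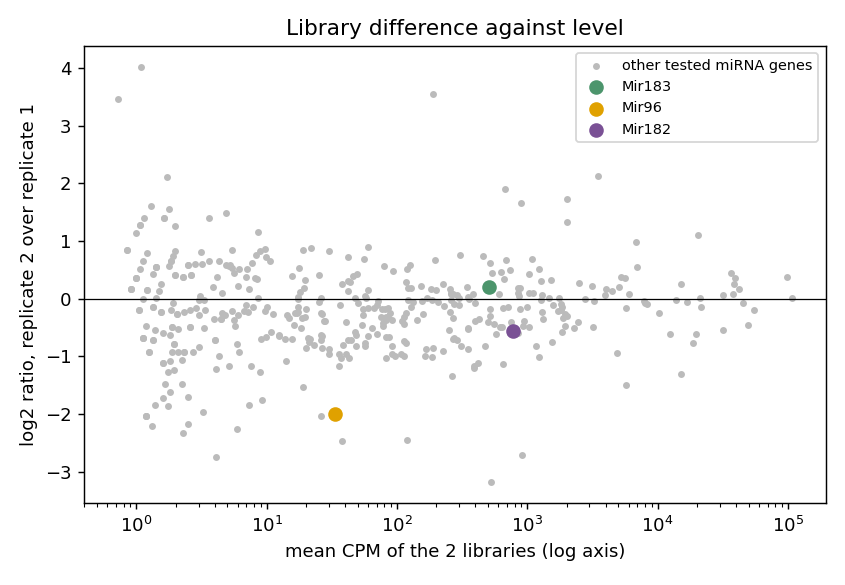
Log2 ratio of replicate 2 over replicate 1 against the mean CPM of the 2 libraries (log axis) for the 455 tested miRNA genes, with the 3 hairpins coloured. Mir183 at 0.21 and Mir182 at -0.56 lie within the cloud, and Mir96 at -1.99 lies at its lower edge.

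The hairpins of the cluster differed from each other in how the libraries compared. The ratio of Mir183 to Mir96 was 4.62 times as high in replicate 2 as in replicate 1 (exact conditional 95% interval 3.56 to 6.02). For Mir182 to Mir96 it was 2.70 times as high (2.09 to 3.51), and for Mir182 to Mir183 0.585 times (0.544 to 0.630). The range of the log2 ratio over the members, highest minus lowest, was 2.20. Without Mir96 it was 0.77, so most of the range rests on the hairpin with the fewest reads.

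Markers of other cells also differed between the libraries, as miRNA genes did in general. The median absolute log2 ratio over all detected genes was 0.40. The 7 genes of the neuron list summed to 471 CPM in replicate 2 and 641 CPM in replicate 1. That sum is in effect Mir137, because the other 6 genes have 20 bases in common with another miRNA gene and their reads could be left unassigned. These 6 are also in the sensory list described below. The 2 genes of the red cell list, Mir451a and Mir144, summed to 175 CPM in replicate 2 and 427 CPM in replicate 1. The 4 genes of the kidney and intestine list summed to 34.1 and 57.2 CPM. Mir126a, the endothelial marker, stood at 41532 CPM in replicate 2 and 56684 CPM in replicate 1, a log2 ratio of -0.45. The liver marker Mir122 went the other way, with a log2 ratio of 0.47. Mir126a, Mir451a and 2 of the 4 kidney and intestine genes also have 20 bases in common with another miRNA gene and may be undercounted. The part of these markers in the library difference of Mir96 and Mir182 was not tested.

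To place these values, every run of at least 3 detected miRNA genes on the same strand with gaps of at most 10 kb was taken as a cluster, which gave 16. The range of 2.20 was the largest of the 16, whose median was 0.87. The next was 2.03, in a run of 13 genes from Mir770 to Mir136 in the imprinted region of chromosome 12. Among the 8 clusters of exactly 3 genes the median range was 0.76. In level, the log2 CPM of the 3 hairpins ranged over 4.83, the seventh largest of the 16, with a median of 4.58. All 6 clusters with a wider range of levels hold genes that have 20 bases in common with another miRNA gene and may be undercounted. Of the 16 clusters, 4 hold no such gene, and among these 4 the miR-183 cluster had the widest range both in level and in library difference. No test of these positions was made.

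Other clusters of 3 hairpins covered a wide span. In the cluster of Mir106b, Mir93 and Mir25, known for its link to cell proliferation, the library log2 ratios were -0.50, -0.30 and -0.27, a range of 0.22. None of its members shares a 20-base stretch with another counted gene. In the cluster of Mir23b, Mir27b and Mir24-1 the range was 0.50, with 3 of 3 called higher in replicate 2 by Fisher's exact test, against 16.9% of all genes. In edgeR's exact test the adjusted p was 1 for all 3, and each of these genes shares sequence with another. The cluster of Mir99b, Mirlet7e and Mir125a came closest, with a range of 1.57 between Mirlet7e at 0.26 and Mir125a at -1.31. Of these, Mirlet7e shares a 20-base stretch with another counted gene and may be undercounted. In the epithelial cluster of Mir200b, Mir200a and Mir429 only 2 members were detected, so it is not among the 16. Mir200b with 50 and 18 reads and Mir429 with 14 and 36 reads, in replicates 2 and 1, were further apart than any members of the miR-183 cluster, by 2.78 on the log2 scale.

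**Figure D5:**
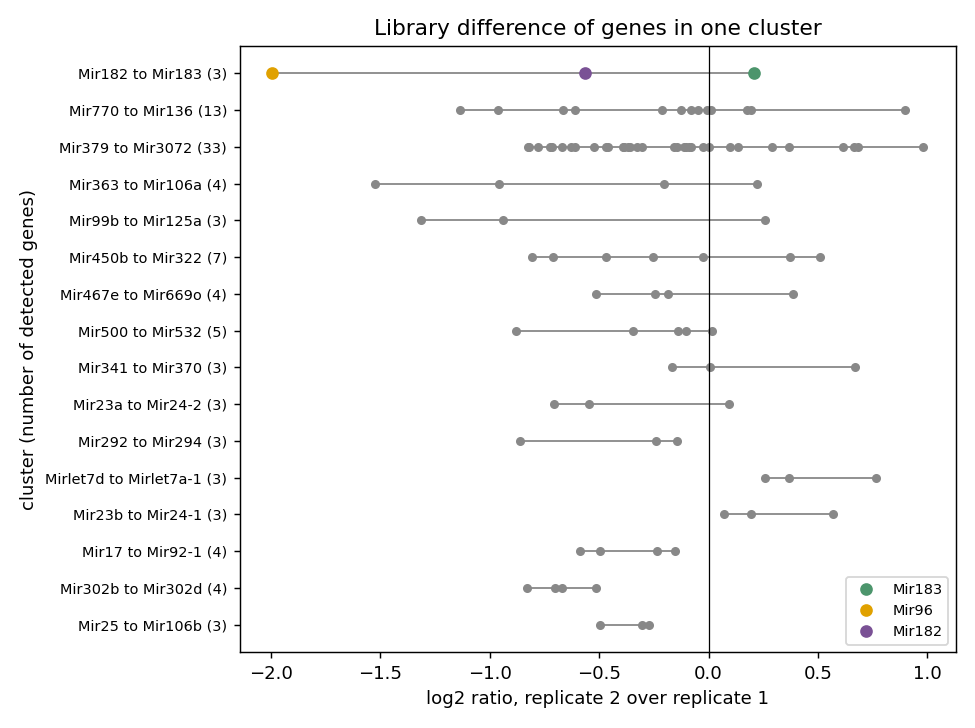
Log2 ratio of replicate 2 over replicate 1 for each detected gene (points) of the 16 clusters with at least 3 detected genes, sorted by range (lines), with the number of genes in brackets. The top line is the miR-183 cluster, from Mir96 at -1.99 to Mir183 at 0.21, and the bottom line the cluster of Mir106b, Mir93 and Mir25, with a range of 0.22.

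The miRNA genes most like each hairpin were sought by the distance between their log2 CPM over the 2 libraries. For Mir96 they were Mir153, at 11.4 CPM in replicate 2 and 63.8 CPM in replicate 1 (distance 0.34), and Mir1247, at 10.3 and 42.4 CPM (distance 0.52). Mir153 is known from neurons, but the neuron marker Mir137 had a log2 ratio of only -0.45, against -1.99 for Mir96. A neuronal source of the Mir96 reads was not tested. Mir182 was closest to Mir181c, at 649 CPM in replicate 2 and 860 CPM in replicate 1 (distance 0.12), and to Mir214, at 582 and 881 CPM (distance 0.14). Mir183 was closest to Mir342, at 621 CPM in replicate 2 and 458 CPM in replicate 1 (distance 0.19), and to Mir181d, at 487 and 550 CPM (distance 0.27). With only 2 libraries, this likeness is one of level and of 1 difference.

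One other mouse miRNA in the RefSeq table has the seed of a 5p arm of the cluster. It is miR-1271-5p, from the gene Gm24195 on chromosome 13, shown because it carries the seed of miR-96-5p.
miR-1271-5p: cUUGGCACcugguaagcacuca

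Gm24195 had no read in either library on either strand, and a count of 0 allows up to 0.433 CPM in replicate 2 and 0.825 CPM in replicate 1. It shares no 20-base stretch with another counted miRNA gene. Of the genes found to carry this seed, Mir96 was the one with reads. Of the 8 genes of the sensory list, the 6 Mir124a and Mir9 genes have 20 bases in common with another miRNA gene, so their low counts say nothing of their level. Of the remaining pair Mir204 was detected. Mir204, a miRNA of the eye's pigment epithelium, was at 47.1 CPM in replicate 2 and 73.7 CPM in replicate 1. It was lower in replicate 2 (log2 ratio -0.65, adjusted p = 2.46e-07 by Fisher's exact test), and the other tested gene, Mir211, was not called. Of the 7 genes of the epithelial list, 5 were detected. Mir203, a miRNA of keratinised epithelium, was at 897 CPM in replicate 2 and 792 CPM in replicate 1, and was called higher in replicate 2. Mir429 was called lower and the 3 remaining tested genes were not called. Of the 4 genes of the neuroendocrine list, 1 was called higher and 2 lower, where 16.9% and 35.6% of all genes were. Its leading gene Mir375, abundant in endocrine cells and called lower, had a log2 ratio of -0.08 that turned to 0.07 under TMM and 0.09 under DESeq2 size factors. The median log2 ratio was -0.56 over the 3 hairpins of the cluster and -0.18 over all 455 tested genes. The former is simply the value of Mir182, between Mir96 at -1.99 and Mir183 at 0.21. It is therefore no common shift of the 3 hairpins.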

How the data were processed

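The authors deposited, for each library, raw counts per miRNA gene in 3 unnamed columns, made on assembly mm10 with annotation M21, per the notes deposited with them. No aligner, counter or trimming is given in the sources used here. From the values, the columns were taken to hold both strands, 1 strand and the opposite strand. Over all genes the both-strand column nevertheless held fewer reads than the 1-strand column. Its totals were 6119201 against 6924829 in replicate 2 and 3159960 against 3635851 in replicate 1. The reason was not tested. The 1-strand column was the main one and the both-strand column the check. Entries that name no gene (unmapped, multimapping, no feature; 55.0% of reads in replicate 2 and 53.2% in replicate 1) were left out of totals.

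The members and lists were chosen with earlier results of these data known. CPM used the miRNA-gene total. Genes with at least 10 reads in both libraries together were tested by Fisher's exact test with Benjamini-Hochberg adjustment at 0.05, and log2 ratios used an offset of 0.5 counts. Alternatives were TMM and DESeq2 scaling (exact binomial test), edgeR's exact test, another total, offset, filter and column, and each library alone. All 2202 identifiers matched GENCODE M21. The text names the members, the 2 nearest genes of each, genes with a member's seed, 4 other clusters and leading list genes. Genes outside this rule, among them Mir770 and Mir136, were named after their values were seen. Simulated data were used to check the exact binomial test, given the true scaling, and edgeR's exact test, given the true dispersion. The changes simulated for edgeR were larger than those of the members. Fisher's exact test itself was not checked in this way. Hairpins were folded with ViennaRNA 2.7.2. Python 3.11.15 with scipy 1.17.1, edgeR 4.0.16 and DESeq2 1.42.0 (R 4.3.3) were used, with figures from matplotlib 3.10.9.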

Additional observations from a re-analysis of the deposited data

How the results depend on the processing

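The library log2 ratios of the 3 hairpins were recomputed 18 times in all. None changed sign, and 15 kept their call. The offset does not enter the test and the filter does not enter the ratio. The calls with another offset and the signs without the filter therefore could not change. With 2 libraries, a value from 1 library always lies within 1 SD of the mean, so leaving a library out tests nothing here. Per 1000000 of all reads, unassigned ones included, the cluster stood at 609 in place of 1325 CPM, since the total is larger. In the both-strand column, where the total is smaller, the cluster stood at 1513 CPM. There Mir183 stood at 584 in place of 512 CPM, a shift larger than its SD. With edgeR's exact test, which adds the spread between the libraries, 5 genes were called in place of 239, and 0 in place of 3 members. Over the alternative columns, scalings, tests, filters and offsets the log2 ratios lay between 0.19 and 0.38 for Mir183, -2.02 and -1.82 for Mir96 and -0.59 and -0.39 for Mir182. The range over the members was 0.77 without Mir96, a choice made after seeing the data. With gaps of up to 5 or 50 kb, a minimum of 50 reads, or the both-strand column, all chosen after seeing the data, the cluster still had the largest range of 16, 17, 15 and 11 clusters. The depth of Mir96, 93 and 195 reads, limits its ratios more than those of the other two. No paired analysis was possible because there is 1 group.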
